A study of Homo sapiens with 2 samples.

Results

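The 5 ELR chemokine genes of human chromosome 4, CXCL1, CXCL2, CXCL3, CXCL5 and CXCL8, were described in A549 cells with and without NAT10. They were chosen by name from the RNA table, with the values of this same knockout and control pair already known, and made up 5 of its 1415 genes. The levels and differences below therefore describe the genes that were chosen and carry no test. A549 is an established line of human lung adenocarcinoma, which the labels call non-small cell lung cancer cells. NAT10 is the acetyltransferase that places N4-acetylcytidine (ac4C) on RNA. The control group was wild-type A549 and the NAT10_KO group was an A549 clone in which NAT10 had been disrupted with CRISPR/Cas9. Per the study's methods, 2 guide RNAs were directed at exon 5 of NAT10, cells were selected with puromycin, and the line used grew from a single cell and was homozygous. No treatment or time point is given in the labels for either group. Each group had 1 library of total RNA, so the knockout cannot be told apart from the clone or from the library, and no difference has a replicate check. NAT10 itself was not analysed here, so the labels were not checked against the targeted gene. The study reports lower NAT10 mRNA and protein in the knockout by its own qRT-PCR and Western blot.

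ELR chemokines are small secreted proteins named for a glutamate, leucine and arginine motif ahead of their first cysteines. They bind the receptor CXCR2, and CXCL8 also binds CXCR1, and they draw neutrophils and promote the growth of vessels. In epithelial cells their genes are switched on through NF-kB by interleukin-1 and tumour necrosis factor, and their short-lived mRNAs carry AU-rich elements in the 3′ untranslated region (3′UTR) that bind decay factors such as ZFP36.

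Values are RPKM, reads scaled by exon length and library size, in 1 library of each group. The effective library sizes behind them came to 6077933 in the control and 5474964 in the knockout, a ratio of 1.11. The reads of each gene were recovered from its RPKM and exon length. Of 1408 genes whose length was known, 1341 (95.2%) gave a whole number of reads for the control and for the knockout alike, within 0.0001. The median gene of the table had 19 reads over both libraries. The table was a limited list, in which genes with reads in both libraries differed by at least 0.99 in size on the log2 scale of RPKM, so medians and shares over it do not describe the transcriptome. Of the markers of lung epithelium, 1 of 6 was in the table, CDH1 (E-cadherin), at 8.82 RPKM in the control and 3.76 in the knockout. Of the leukocyte markers 0 of 10 were in it, and of the fibroblast markers 1 of 6, COL1A1, at 0.503 and 0.223 RPKM. The part of these markers in the results was not tested. In bulk RNA, fewer cells that express a gene and less RNA per cell cannot be told apart.

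All 5 chemokines were lower in the knockout library, and CXCL5 made up most of the chemokine signal in both libraries. Their summed level was 195 RPKM in the control (2698 reads) and 36.4 RPKM in the knockout (464 reads). The sum was 5.36-fold lower, a log2 ratio of reads of -2.39 with a 95% counting interval of -2.53 to -2.25. Intervals here and below are exact and cover the counting error of reads only, since the reads carry no molecular identifiers. The difference was not that of CXCL5 alone, the gene that the study followed up. Members were chosen with this contrast known, so a lower sum without CXCL5 follows from that choice and is description only. The other 4 genes together went from 51.6 to 8.78 RPKM and from 482 to 80 reads, 5.87-fold lower, with a log2 ratio of reads of -2.44 (-2.80 to -2.10).

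On the scale log2(RPKM + 1), 5 of 5 members were lower and 5 of 5 were lower by more than 1. Of all listed genes 57.0% were lower and 19.4% were lower by more than 1. Among the 798 listed protein-coding genes these shares were 61.4% and 12.2%. Nothing is read from these counts, because the members were chosen on this contrast. The median log2(RPKM + 1) ratio was -1.84 over the members and -0.32 over the table. The second value does not mean that typical listed genes barely differed. Without a pseudocount, each gene with reads in both libraries differed by at least 0.99 in size. The table holds both directions, and its median control level of 0.775 RPKM is small beside the 1 RPKM added. The 490 listed protein-coding genes that were lower lost 1266 RPKM in sum, of which the 5 chemokines held 159 RPKM (12.5%) and CXCL5 9.17%.

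**Figure D1:**
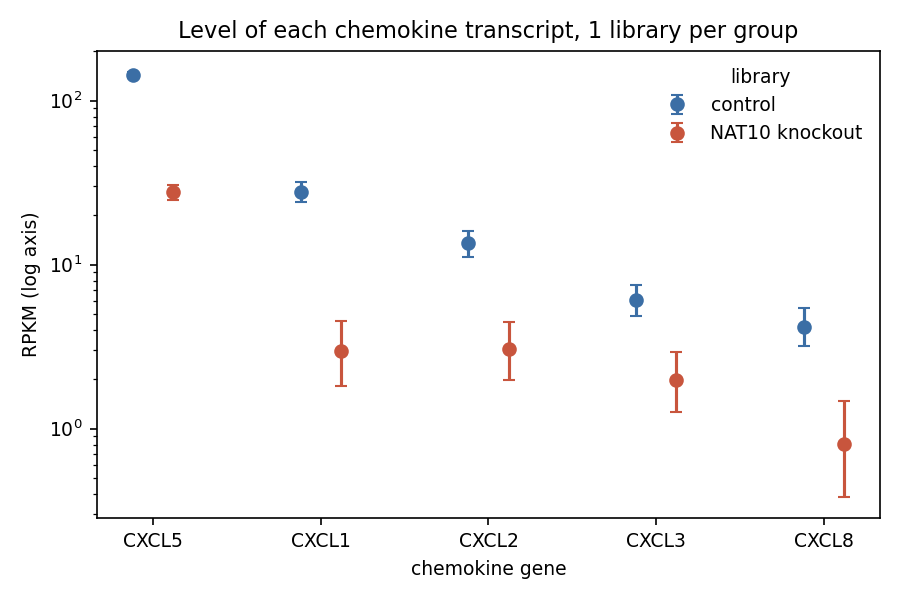
RPKM of each chemokine in the control and in the NAT10 knockout library, on a log axis, with 95% Poisson intervals of the recovered reads as bars and 1 library per group. Every chemokine sits lower in the knockout, CXCL5 at 144 and 27.6 RPKM and CXCL8 at 4.20 and 0.803 RPKM, and no member's interval in the knockout reaches its interval in the control.

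CXCL5 (ENSG00000163735), also called epithelial neutrophil-activating peptide 78 and made mainly by epithelial cells, lies at chr4:73995642-73998779 on the minus strand of GRCh38. Its level was 144 RPKM in the control (95% Poisson interval 138 to 150, 2216 reads) and 27.6 RPKM in the knockout (24.9 to 30.5, 384 reads). The 2 levels stand far apart beside their counting error. CXCL5 was 5.20-fold lower, and 19.2% of its control level was left. Its log2(RPKM + 1) ratio was -2.34, and the log2 ratio of its reads was -2.38 (-2.54 to -2.22), the narrowest interval of the family. It was the gene with the fifth highest control level of the table and the second highest among protein-coding genes.

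CXCL1 (ENSG00000163739, chr4:73869393-73871242, plus strand), first known as a melanoma growth factor, showed the largest difference of the family. It was at 27.8 RPKM in the control (24.2 to 31.7, 219 reads) and at 2.96 RPKM in the knockout (1.83 to 4.52, 21 reads). It was thus second to CXCL5 in the control and level with CXCL2 in the knockout. CXCL1 was 9.39-fold lower, with 10.6% left, a log2(RPKM + 1) ratio of -2.86 and a log2 ratio of reads of -3.23 (-3.95 to -2.58). Among the listed protein-coding genes only 3 had a lower log2(RPKM + 1) ratio.

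CXCL2 and CXCL3 are close copies of CXCL1 and, like it, were first cloned as growth-regulated GRO genes. CXCL2 (ENSG00000081041, chr4:74097035-74099293, minus strand) was at 13.5 RPKM in the control (11.2 to 16.1, 123 reads) and at 3.04 RPKM in the knockout (1.97 to 4.49, 25 reads). It was 4.43-fold lower, with a log2(RPKM + 1) ratio of -1.84 and a log2 ratio of reads of -2.15 (-2.83 to -1.52). CXCL3 showed the smallest difference of the family. CXCL3 (ENSG00000163734, chr4:74036589-74038807, minus strand) was at 6.08 RPKM in the control (4.84 to 7.55, 82 reads) and at 1.98 RPKM in the knockout (1.27 to 2.94, 24 reads). It was 3.08-fold lower and kept 32.5% of its control level, with a log2(RPKM + 1) ratio of -1.25 and a log2 ratio of reads of -1.62 (-2.34 to -0.95).

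CXCL8 (ENSG00000169429, chr4:73740506-73743716, plus strand) encodes interleukin-8, the best known neutrophil attractant of the family, and was its lowest member in both libraries. It was at 4.20 RPKM in the control (3.19 to 5.42, 58 reads) and at 0.803 RPKM in the knockout (0.385 to 1.48, 10 reads). Only 10 knockout reads lie behind the second value. CXCL8 was 5.22-fold lower, with 19.1% left and a log2 ratio of reads of -2.39 (-3.52 to -1.40). Its log2(RPKM + 1) ratio of -1.53 was smaller in size because 1 RPKM is large beside its level.

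In the control the order of the levels per kilobase of all annotated exons was CXCL5, CXCL1, CXCL2, CXCL3 and CXCL8, and only the last pair, CXCL3 and CXCL8, had overlapping intervals. In the knockout CXCL5 stood alone above the rest. CXCL1, CXCL2 and CXCL3 overlapped one another there, and CXCL3 overlapped CXCL8. The order of the middle genes also depended on the length used. Per kilobase of the longest coding transcript, the knockout levels were 4.08 for CXCL3 (2.61 to 6.07), 3.75 for CXCL2 (2.43 to 5.53) and 3.50 for CXCL1 (2.16 to 5.34), on the scale of RPKM, so CXCL3 came first of these 3.

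The members were then compared by their shares within the family. CXCL5 made up 73.6% of the summed RPKM in the control and 75.9% in the knockout. Of the reads it made up 82.1% (Clopper-Pearson 95% interval 80.6 to 83.6) and 82.8% (79.0 to 86.1), so the 2 intervals overlap. CXCL1 went from 14.2% to 8.13% of the summed RPKM. Its share of the reads went from 8.12% (7.11 to 9.21) to 4.53% (2.82 to 6.84), and these intervals do not overlap. CXCL3 moved the other way, from 3.11% to 5.42% of the summed RPKM and from 3.04% (2.42 to 3.76) to 5.17% (3.34 to 7.60) of the reads, where the intervals overlap. CXCL2 went from 6.91% to 8.36% of the summed RPKM, and CXCL8 from 2.15% to 2.21%. The higher share of CXCL5 in the knockout rested on CXCL1. Without CXCL1 in the sum, the knockout share of CXCL5 minus its control share was -3.21 percentage points in place of 2.30.

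**Figure D2:**
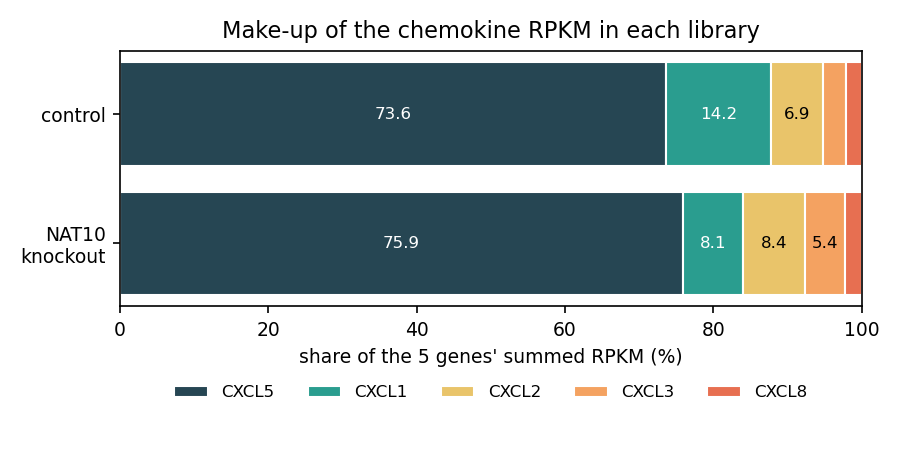
Share of each chemokine in the summed RPKM of the 5 genes, in percent, for the control and the NAT10 knockout library, with 1 library per group and no error drawn. CXCL5 fills most of both bars (73.6% and 75.9%), and the part of CXCL1 shrinks from 14.2% to 8.13%.

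The differences between members were compared directly in the reads, over 10 pairs, each with an unadjusted 95% interval of the difference of 2 log2 ratios. For 4 of the 10 pairs the interval left out 0. The log2 ratio of CXCL1 lay below that of CXCL5 by an amount of -0.85 (-1.59 to -0.18). Against its close copies the gap was -1.08 to CXCL2 (-2.05 to -0.12) and -1.61 to CXCL3 (-2.61 to -0.61). Against CXCL8 it was -0.85, and there the interval of -2.09 to 0.49 held 0. The ratio of CXCL3 lay above that of CXCL5 by 0.76, with an interval of 0.016 to 1.45 that nearly reached 0. For CXCL2 against CXCL5 the difference was 0.23 (-0.47 to 0.88), which neither shows a difference nor that they changed alike. For CXCL5 against CXCL8 it was 0.01 (-0.99 to 1.15), and the width of that interval comes from the few reads of CXCL8.

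**Figure D3:**
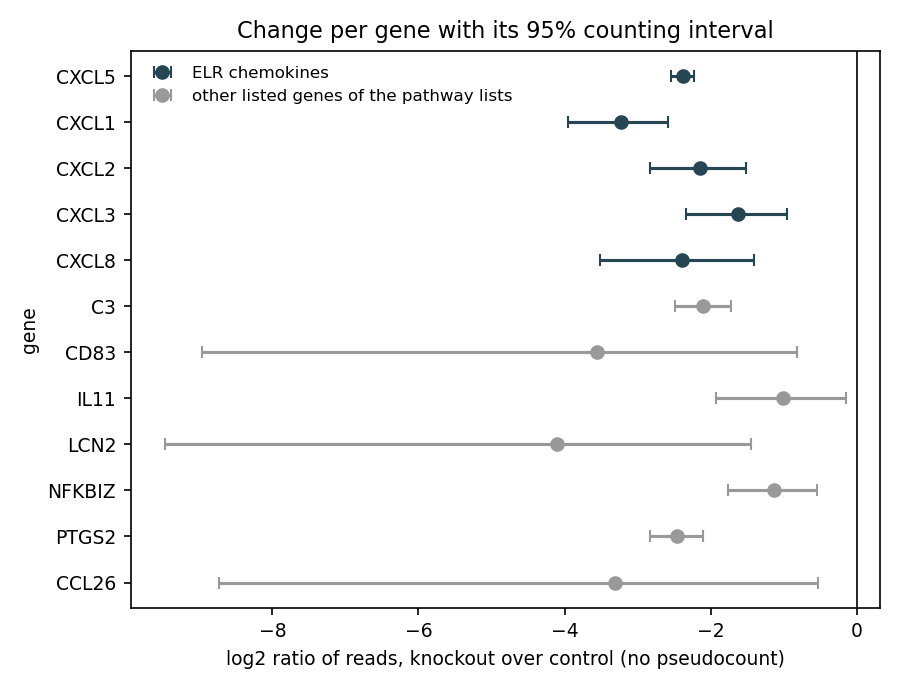
Log2 ratio of reads, knockout over control with no pseudocount, for the 5 chemokines and the other listed genes of the pathway lists that had reads in both libraries, with 95% Clopper-Pearson counting intervals as bars and 1 library per group. All points lie left of 0, CXCL1 lowest of the chemokines at -3.23 and CXCL3 highest at -1.62, and the widest bars belong to genes with 1 knockout read.

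CXCL1, CXCL2 and CXCL3 are similar enough that their reads can be hard to assign. Their coding sequences shared 93.5% of bases for CXCL1 and CXCL2, 90.7% for CXCL1 and CXCL3 and 94.4% for CXCL2 and CXCL3. CXCL5 shared 61.2% to 62.1% with these 3 genes, and CXCL8 53.6% to 55.8% with the others. Stretches of 50 bases that occur in another member made up 5.73% of the stretches of the CXCL1 coding transcript, 9.24% of CXCL2 and 5.26% of CXCL3. In CXCL5 and CXCL8 there were 0, and for stretches of 100 bases there were 0 in all 5. Read length and the treatment of reads with several matching positions are not given in the sources used here. The split of reads among CXCL1, CXCL2 and CXCL3 is therefore uncertain, and the values of CXCL5 and CXCL8 are less open to it. Only the 5 members were compared. Stretches shared with other genes, such as CXCL6 of the same cluster, were not searched for.

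CXCL5 was followed up by the study with reporter constructs of candidate ac4C sites, and the stretch that carries its first 3 sites is shown because it is what the unmutated reporter carried. It lies in the coding sequence from base 69, spans the end of exon 1 (41 bases) and the start of exon 2, and covers chr4:73998282-73998513 on the minus strand of GRCh38 with the intron between them. Capitals mark its 3 runs of at least 4 C-N-N units, a C followed by any 2 bases, of 5, 4 and 4 units.
CXCL5 sites 1 to 3: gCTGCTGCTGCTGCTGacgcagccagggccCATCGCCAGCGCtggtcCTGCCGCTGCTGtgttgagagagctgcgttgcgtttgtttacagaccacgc
The study's site 4, in the 3′UTR at chr4:73997359-73997453, held 0 such runs. Only unbroken runs were counted here, and the study's pattern, written Cxx..Cxx..Cxx..Cxx, may be looser. The count therefore does not bear on whether site 4 carries ac4C. The study reports less ac4C at both tested CXCL5 regions after NAT10 loss, by PCR on RNA pulled down with an anti-ac4C antibody. It also reports a shorter half-life of CXCL5 mRNA in the knockout, and lower CXCL5 mRNA and protein there. With NAT10 knocked down by siRNA, its luciferase assay is reported to show a reduction for the unmutated CXCL5 sites compared with the mutated ones. Overexpression of a catalytic mutant of NAT10 is reported to leave CXCL5 mRNA without significant change. None of these experiments was analysed here.

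Such runs were not particular to CXCL5. The longest run in the coding sequence of each member is given in capitals below, with 6 bases on either side, to set the CXCL5 repeat beside those of its relatives.
CXCL1: tgctctCTCCGCCGCCCCCAGCAAtccccg
CXCL2: cacgctCTCCGCCGCCCCCAGCAAtccccg
CXCL3: cacgctCTCCGCCGCCCCCAGCAAtccccg
CXCL5: ttggtgCTGCTGCTGCTGCTGacgcag
CXCL8: accacaCTGCGCCAACACagaaat
The runs of CXCL1, CXCL2 and CXCL3 had 6 units, that of CXCL5 5 and that of CXCL8 4. Of 19526 protein-coding genes, 61.0% had a run of at least 6 units, 80.0% of at least 5 and 94.4% of at least 4. The median was 6 units over the 483 other listed genes that were lower and 7 over the 306 that were higher. No ac4C measurement was analysed here, and a run of these letters is a description of the sequence.

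The promoters of the 5 genes held a common letter pattern. In the window from 250 bases before to 50 after the RefSeq start (GRCh38.p14), GGAATTTCC, a form of the NF-kB motif, was found in 5 of 5 members and in 162 of 35116 promoters (0.461%), with both strands searched. The 5 promoters are not 5 separate cases, since the 250 bases before the start were 70.1% to 81.4% identical among CXCL1, CXCL2 and CXCL3. The 29 bases around the motif are shown on the strand of each gene, with the motif in capitals, because all 5 promoters hold it and few others do.
CXCL1: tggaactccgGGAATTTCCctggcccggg
CXCL2: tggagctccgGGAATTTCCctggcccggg
CXCL3: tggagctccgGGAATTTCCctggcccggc
CXCL5: atgagttcagGGAATTTCCccagcatccc
CXCL8: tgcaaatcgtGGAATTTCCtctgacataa
These stretches are chr4:73869305-73869333 (plus) for CXCL1, chr4:74099254-74099282 (minus) for CXCL2, chr4:74038749-74038777 (minus) for CXCL3, chr4:73998749-73998777 (minus) for CXCL5 and chr4:73740468-73740496 (plus) for CXCL8. The motif began 78, 77, 78, 90 and 91 bases before the RefSeq start of CXCL1, CXCL2, CXCL3, CXCL5 and CXCL8. In GENCODE 29 the gene starts of all but CXCL1 lie further upstream, by 63 to 118 bases. By those starts the motif lies inside the gene in CXCL2, CXCL3 and CXCL5, and before the gene in CXCL1 and CXCL8. The overlapping pattern GGGAATTTC was found in 4 of 5 members, all but CXCL8, and in 0.316% of promoters. The pattern ATAAAA, a form of the box that sets the start of transcription, was in 5 of 5, 30 or 31 bases before the RefSeq start, and in 16.0% of promoters. TGACTCA, the AP-1 motif, was in CXCL8 only, and in 4.95% of promoters. Binding was not measured.

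The 3′UTRs of all 5 genes were dense in the AU-rich pentamer ATTTA, in which T stands for U of the RNA. CXCL2 held 10 copies (13.9 per kilobase), a density reached by 0.357% of 17945 protein-coding genes with a 3′UTR of at least 100 bases. CXCL3 held 7 copies (10.4 per kilobase, reached by 0.897%), CXCL8 held 9 (7.19, 3.29%), CXCL1 held 5 (7.08, 3.43%) and CXCL5 held 11 (5.51, 7.37%). CXCL5 thus had the most copies and the lowest density. The longer pattern TTATTTATT occurred 3 times in CXCL1, 5 times in CXCL2 and 1 time each in CXCL3 and CXCL8, and it was not found in CXCL5. The median density was 1.61 copies per kilobase over all these genes, 1.81 over the 456 other listed genes that were lower and 1.23 over the 292 that were higher. CXCL2 was the densest member, while CXCL1 had the largest difference between the libraries. Any relation of the pentamer to the differences was not tested.

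**Figure D4:**
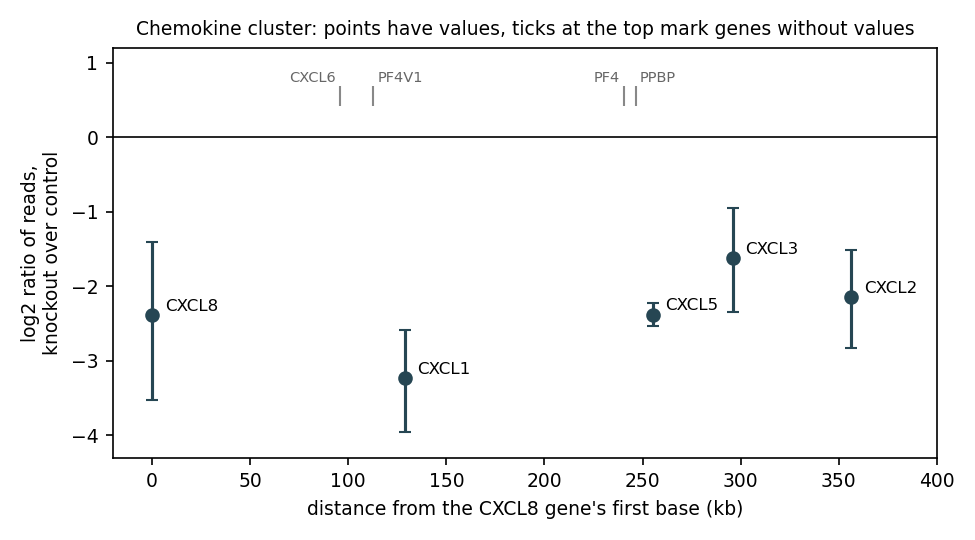
Log2 ratio of reads, knockout over control, for each chemokine against the distance in kilobases from the first base of the CXCL8 gene, with 95% counting intervals as bars and 1 library per group. The 5 points run from -1.62 to -3.23 over 359 kb, and ticks at the top mark CXCL6, PF4V1, PF4 and PPBP, which carry no value here.

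The 5 genes span chr4:73740506-74099293, 359 kb that hold 9 protein-coding genes. The other 4, CXCL6, PF4V1, PF4 and PPBP, were not analysed here, so it cannot be said whether the whole cluster was lower. CXCL8 and CXCL1 lie 126 kb apart and CXCL1 and CXCL5 124 kb. CXCL5 and CXCL3 are 37.8 kb apart, and CXCL3 and CXCL2 58.2 kb. Within 1 Mb of a member, the table held 6 genes, and the only other one was the noncoding RNA gene LINC02562. It was read 0 times in control cells and 5 times in the clone, where it was at 0.884 RPKM, and thus did not share the direction of the chemokines.

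The other genes of the pathway were taken from 6 lists of 129 genes in all, and 8 of these were in the table. All 8 were lower in the knockout, 0 were higher, and 4 were lower by more than 1 on the scale log2(RPKM + 1). Of all listed protein-coding genes 61.4% were lower and 12.2% were lower by more than 1, and with 8 genes of a limited list nothing is read from the difference. The lists of other CXC genes of these clusters (8 genes), of receptors and binding partners (7), of upstream inputs to NF-kB (40) and of AU-rich decay factors (15) had 0 genes in the table. Their levels were not analysed here. Of 44 cytokines and NF-kB target genes 7 were in it, with a median log2(RPKM + 1) ratio of -0.79, and 3 were lower by more than 1. For low genes the pseudocount draws this ratio towards 0. Of 15 other chemokines 1 was in it.

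PTGS2 (cyclooxygenase-2, which makes prostaglandins) had the most reads of these genes. It was at 14.3 RPKM in the control (459 reads) and 2.60 in the knockout (75 reads), 5.51-fold lower, with a log2 ratio of reads of -2.46 (-2.83 to -2.11). C3, the central complement component, was at 6.58 RPKM (333 reads) and 1.54 RPKM (70 reads), with a log2 ratio of reads of -2.10 (-2.49 to -1.72). Both log2 ratios thus lay in the range of the chemokines. NFKBIZ, a nuclear NF-kB cofactor, went from 83 to 34 reads (-1.14, -1.76 to -0.54). IL11, a cytokine of the interleukin-6 family, went from 38 to 17 reads (-1.01, -1.93 to -0.15). These were the log2 ratios of reads nearest to 0 in the list. For the others the reads were few. LCN2 (lipocalin-2, which binds bacterial siderophores) went from 19 reads to 1, with a log2 ratio of reads of -4.10 (-9.47 to -1.44). CD83, a surface protein of activated immune cells, went from 13 reads to 1 (-3.55, -8.96 to -0.81). CCL26 (eotaxin-3, an eosinophil attractant) went from 11 reads to 1 (-3.31, -8.74 to -0.53). VCAM1, an adhesion molecule for leukocytes, went from 6 reads to 0, which is 1.80-fold lower if the knockout is set to a floor of 3 reads. The upper end of its interval for the log2 ratio of reads was -0.085, close to no difference.

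**Figure D5:**
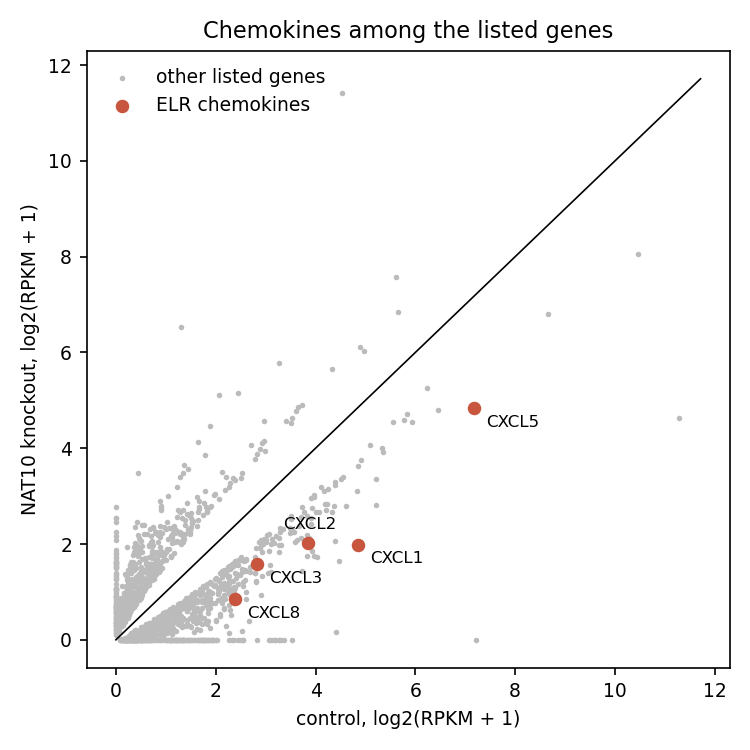
Level of each listed gene as log2(RPKM + 1) in the control and in the NAT10 knockout library, with 1 library per group, the 5 chemokines in colour and a line at equal levels. The chemokines lie below the line, CXCL5 apart at the upper right, among other listed genes that also lie below it.

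The protein-coding genes with the pair of levels most like each member were found by the distance between the log2(RPKM + 1) values of the 2 libraries. CXCL5 had no close neighbour, the nearest being CD24, a surface glycoprotein, at 86.6 and 26.7 RPKM (distance 0.72), then PTP4A1 (1.03) and TNS4 (1.36). CXCL1 was likewise apart, with CYP1B1 (0.85), CDCP1 (0.86) and TGM2 (0.90) nearest. CXCL2 had PTGS2 nearest (0.19), followed by the mucin MUC5B (0.27). The nearest of CXCL3 were IFITM3 (0.16), FGFBP1 (0.19) and HSD17B8 (0.25), and those of CXCL8 were MAGEH1 (0.068), SP9 (0.088) and FLRT3 (0.14). With 2 libraries, such a distance compares 2 levels per gene and nothing more.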

How the data were processed

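RNA-seq of A549 control and NAT10 knockout cells was analysed, with 1 library per group and groups taken from the sample titles. The deposited values are named WT-input and NAT10-KO-input. WT-input was taken to be the sample titled Control, a match that the labels do not spell out. Per the labels, total RNA was extracted with RNAiso Plus and libraries were made with a SMARTer mRNA-Seq kit, and the submitters' processing notes name the genome build hg38. The aligner, counting tool, annotation, read length and strand handling are not given in the sources used here. The authors deposited RPKM per gene and library for a limited list of genes. The log2 fold change and the p-value, raw and adjusted, that the authors deposited for their own comparison were not used.

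RPKM was compared as log2(RPKM + 1) of knockout over control. Reads were recovered by multiplying RPKM by the GENCODE 29 exon length (GRCh38) and dividing by the value of 1 read, which gave the effective library sizes. Levels have exact Poisson intervals, ratios and shares Clopper-Pearson intervals and differences between members conditional odds ratio intervals, all at 95%. No test was made, because each group had 1 library and the members were chosen on this contrast. The scripts were tested on simulated data. Coding sequences and 3′UTRs came from the longest complete coding transcript of GENCODE 29, promoters from RefSeq (GRCh38.p14), and the CXCL5 reporter stretch from the study's supplement. Promoters matched 69.4% of the listed protein-coding genes, under the 80% set for a comparison of listed genes with and without a motif. That comparison was computed but is void for this reason and is not reported.

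The members, the gene lists and the rules were chosen with earlier results of these data known. Named genes were the 5 members, every listed gene of the lists, listed genes within 1 Mb of a member, and the 3 protein-coding genes nearest to each member, of which 1 is not reported here. Pseudocounts of 0.1 and 5 RPKM, recovered reads, a minimum of 10 mean reads, other lengths and sums without some members were tried as alternatives. Python 3.11.15, numpy 2.4.6, pandas 2.3.3, scipy 1.17.1 and matplotlib 3.10.9 were used.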

Additional observations from a re-analysis of the deposited data

How the results depend on the processing

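Of 31 alternative values, 26 moved by less than a set limit and 5 moved further. The limit was the counting error, except for the number of members lower by more than 1, where a fixed fold of that number was used. The direction of a single chemokine could not turn under these settings, so its stability is no check. The same pseudocount was added to both libraries, the reads come from the same RPKM, and the read minimum removed no member. With a pseudocount of 5 RPKM the log2 ratio of CXCL1 was -2.04 in place of -2.86, and 3 of 5 members in place of 5 were lower by more than 1, since CXCL3 and CXCL8 then stood at -0.67 and -0.66. A larger pseudocount draws the ratio of a low gene towards 0 by construction. The summed log2 ratio ran from -2.43 to -2.27 over the alternatives. The difference of the CXCL5 share, 2.30 percentage points, was 0.624 in reads, 1.04 per length of the coding transcript, 0.0139 without CXCL1, CXCL2 and CXCL3, and -3.21 without CXCL1. The control share of CXCL1, 14.2%, was 8.12% in reads, which carry no length, and 15.5% per length of the coding transcript. The coding length and the sum without CXCL1 were chosen after seeing the data. With 1 library per group no library could be left out. No paired analysis was possible because each group had 1 library. Depth limits CXCL8 most, with 10 knockout reads.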
